A study of Mus musculus with 8 samples.

Results

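Genes of the p53 pathway and inhibitors of the cyclin-dependent kinases (CDKs) were examined in activated and quiescent mouse hepatic stellate cells, the liver pericytes that store vitamin A and become contractile, matrix-producing cells on activation. The members were chosen by name: Trp53, Cdkn1a, Cdkn1b, Cdkn2a, Cdkn2b, Mdm2, Ccng1, Phlda3, Zmat3 and Gdf15. Of these 10 genes, 8 were described among the 14162 genes of the table, and Cdkn2a and Cdkn2b were not analysed here. RNA was sequenced from 4 groups with 2 libraries each (a and b): activated cells with miR-15a, activated cells with a control microRNA, activated cells with no microRNA named, and quiescent cells. All are labelled as hepatic stellate cells. The animals named are C57BL/6J and SCID mice, with no strain, age, sex or culture time given per library, and do not say how the microRNAs were delivered or how activation was reached. They do not say whether a and b came from separate animals, so the p-values speak for the spread between libraries alone, and that spread may be technical.

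The transcription factor p53, encoded by Trp53, is held at a low level by the ubiquitin ligase Mdm2 and is stabilised by DNA damage and other stress, so its activity is set mainly on the protein and is read from the RNA of its targets. These include Cdkn1a, whose product p21 inhibits CDKs, and Mdm2 itself, which closes a feedback loop. The Cip/Kip inhibitors p21 and p27 (Cdkn1b) bind cyclin-CDK complexes, whereas the CDK inhibitors among the products of Cdkn2a and Cdkn2b act on the CDKs of early G1. In liver fibrosis, p53-dependent senescence of activated stellate cells is known to limit scarring.

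The microRNA tested, miR-15a, is shown because its seed defines the sites sought in the members. Its mature 5′ arm (chromosome 14, 61632075 to 61632096, minus strand, RefSeq sequence on GRCm38.p6) has its seed, bases 2 to 8, in capitals.
mmu-miR-15a-5p: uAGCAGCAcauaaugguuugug
The complement of that seed, TGCTGCT, was sought in 3′ UTRs, taking for each gene the longest one annotated (GENCODE M21, GRCm38). It was found in 4 of the 8 members, Cdkn1a, Ccng1, Phlda3 and Zmat3, against 23.9% of the 12533 genes of the table with an annotated 3′ UTR. The 3′ UTRs of the members ran from 150 bases (Gdf15) to 6692 bases (Zmat3), against a median of 1166 over all genes. The 4 genes with a site are printed as 30 bases each, 5′ to 3′ on the transcript, with the match in capitals.
Cdkn1a, chr17:29100089-29100095, plus strand, exon 3 of 3: aatctggtgatcTGCTGCTcttttccccca
Ccng1, chr11:40749166-40749172, minus strand, exon 6 of 6: atttgtcagaacTGCTGCTtcaatctaatc
Phlda3, chr1:135768944-135768950, plus strand, exon 2 of 2: gggggggtctccTGCTGCTtaggtcctttt
Zmat3, site 1, chr3:32339977-32339983, minus strand, exon 6 of 6: ttctctctccatTGCTGCTttagagtagtc
Zmat3, site 2, chr3:32338753-32338759, minus strand, exon 6 of 6: cttgtggctctcTGCTGCTgcttctttttt
Zmat3 held a further match that overlaps site 2. A match of these letters is a description of the sequence and was not tested as a site of action.

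The values are normalized scores on one shared scale, so sequencing depth is unknown and levels are compared for 1 gene between libraries and not between genes. Every library held the same 910 distinct values, and at the top these are far apart: no value lies between 58200 and the ceiling of 125636. Libraries a and b of a group had a Pearson r across genes of 0.988 to 0.992. Tests were made with limma on log2(value + 5) over 13150 genes, and genes are said to pass, to rise or to fall at an adjusted p under 0.05.

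The libraries also differed in transcripts of other cells, which touches every comparison here. The summed value of the 9 macrophage markers analysed (of 11 listed) was 9654 to 10481 with miR-15a, 1039 to 1052 with the control microRNA, 695 to 884 in activated cells and 127565 to 147762 in quiescent cells. That of 10 endothelial markers was 7442 to 7729, 234 to 394, 75 to 196 and 148922 to 218196 in the same order of groups. That of 6 hepatocyte markers (of 7 listed) was 859 to 1248, 66 to 795, 173 to 227 and 8425 to 10129, so the control microRNA libraries differed widely from each other. In activated library b Marco and Pecam1 were at 0, while the other macrophage and endothelial markers ran from 1 (Clec4f among them) to 230 (C1qa). In activated library a Marco was at 1 and Pecam1 at 32. Of 9 listed stellate markers 8 were analysed. In activated against quiescent cells 3 rose (Acta2, Col1a1 and Pdgfrb, with Acta2 at 125636 in both activated libraries and at 43 and 51 in quiescent ones) and 5 fell (Reln, Rgs5, Lum, Dcn and Des, with Reln at 14 and 22 in activated libraries and at 7724 and 8724 in quiescent ones). With miR-15a against the control microRNA Dcn, Lum, Pdgfrb and Col1a1 fell and Reln rose, while Acta2 was at 125636 and 58193 in both groups. Xist was at 169 and 21 in activated and at 8724 in both quiescent libraries, while Ddx3y, which is Y-linked, stood at 2606 and 2570 in activated cells, against 44 and 40 in quiescent cells, so the animals of these groups differed in sex. Both microRNA groups had both transcripts (Xist at 3373 to 5027, Ddx3y at 1006 to 1282). In bulk RNA, fewer cells of a type and less RNA per cell cannot be told apart. The part of these differences in the results below was not tested.

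**Figure D1:**
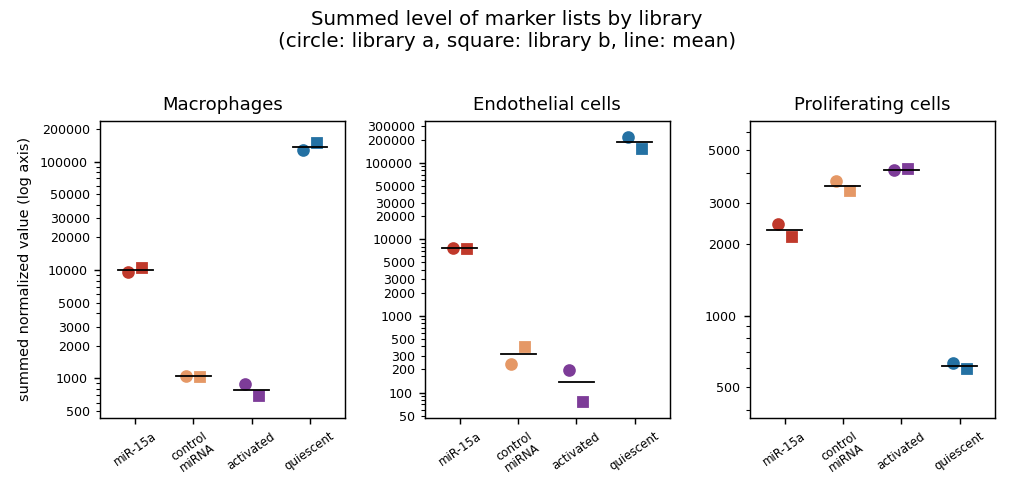
Summed normalized value (log axis) of the macrophage, endothelial and proliferation marker lists in each of the 8 libraries, with circles for library a, squares for library b and lines for group means. Macrophage and endothelial sums were highest in quiescent cells and next highest with miR-15a, and proliferation sums ran from 591 in a quiescent library to 4158 in an activated one.

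With miR-15a against the control microRNA, 2 members rose, Mdm2 and Phlda3, and 2 fell, Cdkn1b and Zmat3. Over all tested genes 14.4% rose and 15.4% fell. The median log2 fold change was 0.24 over the members and -0.07 over all genes. The differences were small, between 0.41 and 0.67 on the log2 scale in size, and Trp53, Cdkn1a, Ccng1 and Gdf15 did not pass. All 9 macrophage and all 10 endothelial markers were higher with miR-15a in the same comparison.

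Against activated cells with no microRNA named, miR-15a libraries had higher Trp53, Mdm2 and Phlda3 and lower Gdf15, where 16.8% of all genes rose and 21.6% fell. The control microRNA libraries had higher Trp53 and Cdkn1b and lower Gdf15 against the same activated libraries, where 7.18% of all genes rose and 6.61% fell. The members' medians in these comparisons were -0.02 and 0.09, against -0.10 and -0.03 over all genes. These comparisons share libraries, so their values are given side by side and not as support for each other.

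In activated against quiescent cells, every one of the 8 analysed members passed. Ccng1, Phlda3, Zmat3 and Gdf15 rose and Trp53, Mdm2, Cdkn1a and Cdkn1b fell. The background was as broad, with 45.4% of all genes higher and 34.1% lower, so passing in itself says little about these genes. Their median was 0.06, against 0.21 over all genes. The split between directions over all genes depended on the scaling: median-ratio scaling moved the median log2 fold change of all genes from 0.21 to -0.06, with 4775 genes higher and 5414 lower in place of 5968 and 4483. It gave 2311 higher and 1584 lower for miR-15a against the control microRNA, in place of 1897 and 2029, and 3113 and 1644 against activated cells, in place of 2204 and 2841. For the control microRNA against activated cells it gave 1371 and 494 in place of 944 and 869.

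**Figure D2:**
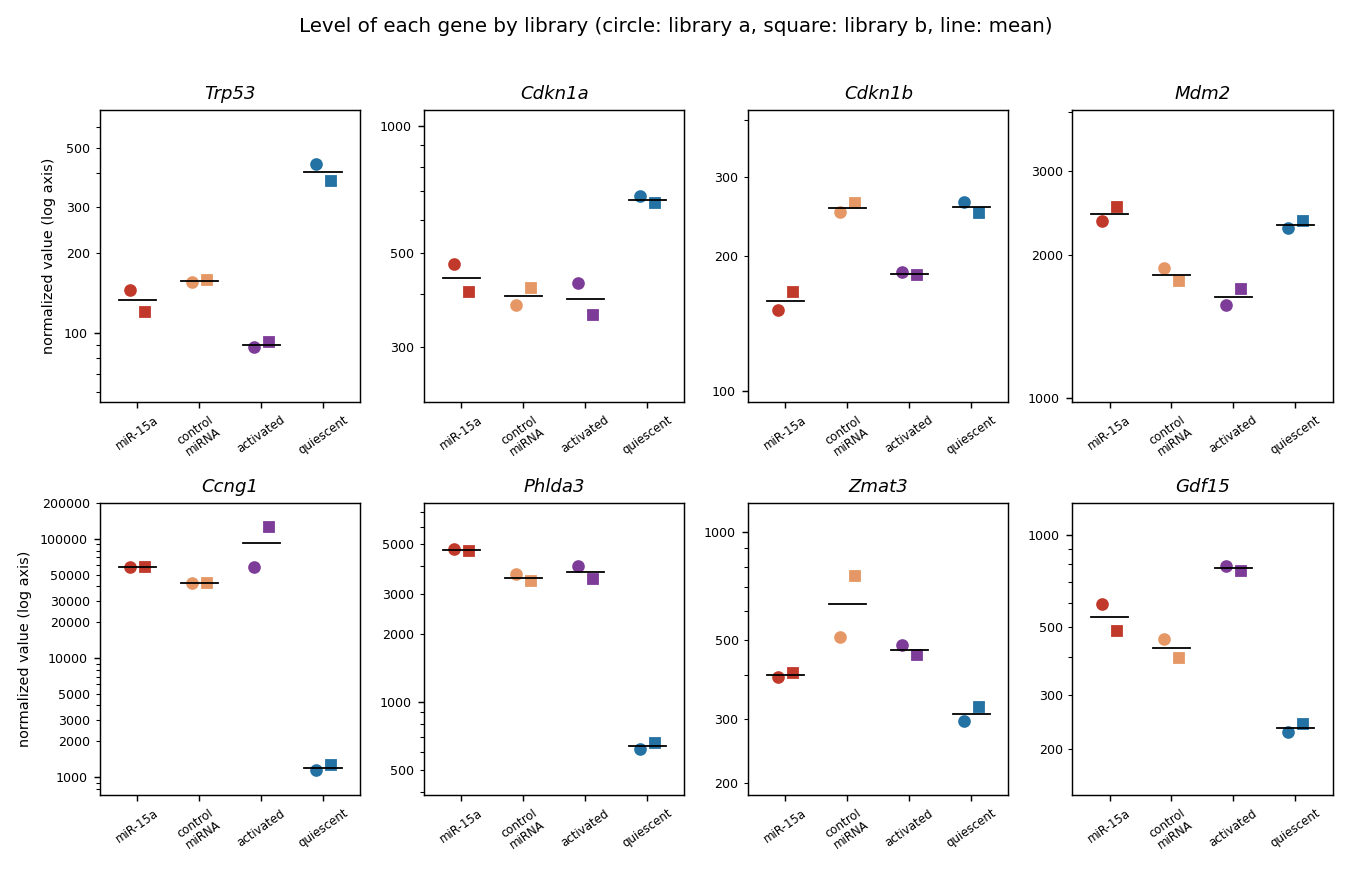
Normalized value (log axis, own range in each panel) of the 8 genes in each library, with circles for library a, squares for library b and lines for group means. Quiescent libraries were highest for Trp53 and Cdkn1a and lowest for Ccng1, Phlda3, Zmat3 and Gdf15.

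Trp53 encodes p53 itself (chromosome 11, 69580359 to 69591873, plus strand; positions are on GRCm38 here and below). Its value was 145 and 120 with miR-15a, 155 and 158 with control microRNA, 88 and 92 in activated cells, and 435 and 374 in quiescent cells. The quiescent libraries were the highest and the activated libraries the lowest, and no group overlapped its neighbour. Activated cells were lower than quiescent ones by a log2 fold change of -2.10 ± 0.13 (SE, n = 2 each, adjusted p = 2.42e-06, limma). Against activated cells Trp53 was higher with miR-15a by 0.53 ± 0.13 (adjusted p = 0.0155) and with the control microRNA by 0.77 ± 0.13 (adjusted p = 0.0111). Between the microRNA groups it did not pass (-0.24 ± 0.13, adjusted p = 0.20). The call for miR-15a against activated cells was lost without miR-15a library a (adjusted p = 0.0779), activated library a (0.0721) or activated library b (0.0604). That for the control microRNA was lost without control library b (0.0574) or activated library a (0.0639) or b (0.0602), and reached 0.05 with these groups fitted alone. A processed pseudogene, Trp53-ps, is annotated, and reads that match both cannot be told apart in these values.

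Mdm2, the ligase that marks p53 for degradation (chromosome 10, 117688875 to 117710758, minus strand), stood at 2360 and 2528 with miR-15a, 1874 and 1763 with control microRNA, 1573 and 1694 in activated cells, and 2276 and 2360 in quiescent cells. The miR-15a and quiescent libraries were the highest and touched each other at 2360, while both other groups lay below them. It was higher with miR-15a by 0.43 ± 0.07 against the control microRNA (adjusted p = 0.00348) and by 0.58 ± 0.07 against activated cells (adjusted p = 0.000613). Both calls held under all 15 alternatives. Activated cells were lower than quiescent ones by a log2 fold change of -0.50 ± 0.07 (adjusted p = 0.00023), and by -0.78 with median-ratio scaling. The control microRNA did not pass against activated cells (0.15 ± 0.07, adjusted p = 0.155).

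Cdkn1a, the gene of the CDK inhibitor p21 (chromosome 17, 29090976 to 29100727, plus strand), was at 470 and 404 with miR-15a, 377 and 413 with control microRNA, 424 and 356 in activated cells, and 682 and 655 in quiescent cells. The 3 activated groups overlapped one another, and both quiescent libraries lay above them. Activated cells were lower than quiescent ones by a log2 fold change of -0.77 ± 0.11 (adjusted p = 0.000388), a call held under all 15 alternatives. The difference between miR-15a and the control microRNA was 0.14 ± 0.11 (95% interval -0.12 to 0.40, adjusted p = 0.384), and that between miR-15a and activated cells 0.16 ± 0.11 (-0.10 to 0.43, adjusted p = 0.285). The control microRNA and activated cells differed by 0.02 ± 0.11 (adjusted p = 0.919). An unconfirmed transcript model on the other strand overlaps 1046 bases of Cdkn1a, and whether the counting used strand is not given in the sources used here.

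Part of the promoter region of Cdkn1a is shown because p53 is known to act on this gene. The p53 half-site consensus, which reads the same on both strands, was sought in RefSeq promoter windows (250 bases before to 50 after each start, GRCm38.p6). A window of Cdkn1a held a pair of exact half-sites, given in capitals, of which the first begins 73 bases before that start. Another window of Cdkn1a (chr17:29093519-29093818) held 0 half-sites. Only exact matches are in capitals. The bases directly after the second half-site miss the consensus at their first base alone and stay in lower case.
Cdkn1a, chr17:29090892-29090951, plus strand: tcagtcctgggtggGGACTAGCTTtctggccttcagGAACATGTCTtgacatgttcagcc
A pair of half-sites at most 13 bases apart was present in 0.073% of the 32851 windows searched. Single half-sites were present in 8.36% of windows and, among the 7 members with a window, in Trp53, Mdm2 and Ccng1 besides Cdkn1a. A match is a description of the letters and was not tested as a bound site.

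Cdkn1b encodes the CDK inhibitor p27, which is controlled largely through its degradation (chromosome 6, 134920401 to 134925513, plus strand). Its value was 152 and 166 with miR-15a, 250 and 262 with control microRNA, 184 and 181 in activated cells, and 264 and 249 in quiescent cells. The miR-15a libraries were the lowest, and the control microRNA and quiescent libraries were the highest and overlapped. It was lower with miR-15a than with the control microRNA by a log2 fold change of -0.67 ± 0.09 (adjusted p = 0.00188), a call held under all 15 alternatives. Against activated cells miR-15a did not pass (-0.19 ± 0.09, adjusted p = 0.135), while the control microRNA was higher by 0.48 ± 0.09 (adjusted p = 0.0188). The call for the control microRNA was lost without control library b (adjusted p = 0.0901) or activated library a (0.0815) or b (0.10), and with these groups fitted alone (0.0672). Activated cells were lower than quiescent ones by -0.48 ± 0.09 (adjusted p = 0.00185), and by -0.75 with median-ratio scaling. No TGCTGCT was found in the 3439 bases of its 3′ UTR.

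Phlda3 encodes a small lipid-binding protein that restrains the kinase Akt and is a direct p53 target (chromosome 1, 135766119 to 135769136, plus strand). It stood at 4776 and 4665 with miR-15a, 3682 and 3448 with control microRNA, 3996 and 3514 in activated cells, and 620 and 660 in quiescent cells. Both miR-15a libraries were above all others, the control microRNA and activated libraries overlapped, and the quiescent libraries were far below. Phlda3 was higher in activated than in quiescent cells by 2.54 ± 0.08 (adjusted p = 6.13e-08), a 5.82-fold difference. With miR-15a it was higher by 0.41 ± 0.08 against the control microRNA (adjusted p = 0.00742) and by 0.33 ± 0.08 against activated cells (adjusted p = 0.0127). The call against activated cells was lost without miR-15a library a (adjusted p = 0.0589) or activated library b (0.0769). The control microRNA did not pass against activated cells (-0.07 ± 0.08, adjusted p = 0.554).

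Ccng1 encodes cyclin G1, an atypical cyclin induced by p53 (chromosome 11, 40748552 to 40755311, minus strand). It was at 58200 in both miR-15a libraries, at 42360 in both control microRNA libraries, at 58200 and 125636 in activated cells, and at 1138 and 1260 in quiescent cells. The libraries of the activated groups thus held 3 values near the top of the shared scale, the last of which is its ceiling, and all were far above the quiescent libraries. Activated cells were higher than quiescent ones by 6.15 ± 0.30 on the log2 scale (adjusted p = 7.09e-07), a difference that the ceiling limits. Between the miR-15a and the control microRNA libraries it differed by 0.46 ± 0.30 (adjusted p = 0.286), with an SE that includes the step between the activated libraries. Without activated library a or b this difference had an adjusted p of 0.0054 or 0.00534, and the fit of these groups alone gave 0.00646. Against activated cells, miR-15a (-0.56 ± 0.30, adjusted p = 0.179) and the control microRNA (-1.01 ± 0.30, adjusted p = 0.0607) did not pass. Without activated library a they did, at -1.11 (adjusted p = 0.000333) and -1.57 (adjusted p = 0.000741). Without activated library b, miR-15a and activated cells were equal and the control microRNA was lower at -0.46 (adjusted p = 0.0399). With tied libraries such p-values may be too small.

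Zmat3, a p53 target that encodes an RNA-binding zinc finger protein (chromosome 3, 32334792 to 32366014, minus strand), was at 394 and 404 with miR-15a, 510 and 752 with control microRNA, 485 and 454 in activated cells, and 296 and 325 in quiescent cells. Control library b was well above all others, and no group overlapped its neighbour. Zmat3 was lower with miR-15a than with the control microRNA by a log2 fold change of -0.63 ± 0.16 (adjusted p = 0.0257). This call was lost without control library b (-0.35, adjusted p = 0.0568), miR-15a library a (0.104) or b (0.0948), and quiescent library a or b (0.0516 each), and with the microRNA groups fitted alone (0.125). Activated cells were higher than quiescent ones by 0.59 ± 0.16 (adjusted p = 0.0113). That call was lost without activated library a (0.0625) or quiescent library a (0.0751) and with median-ratio scaling (0.31, adjusted p = 0.121). Against activated cells, miR-15a (-0.23 ± 0.16, adjusted p = 0.299) and the control microRNA (0.40 ± 0.16, adjusted p = 0.141) did not pass, although the control microRNA did without its library a (0.67, adjusted p = 0.0111).

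Gdf15, which encodes a secreted stress cytokine of the TGF-beta superfamily and is induced by p53 and by other stress pathways (chromosome 8, 70629393 to 70632456, minus strand), stood at 594 and 485 with miR-15a, 456 and 398 with control microRNA, 792 and 762 in activated cells, and 228 and 242 in quiescent cells. The activated libraries were the highest and the quiescent libraries the lowest, and no group overlapped its neighbour. It was higher in activated than in quiescent cells by 1.70 ± 0.11 (adjusted p = 4.18e-06). Against activated cells it was lower with the control microRNA by a log2 fold change of -0.86 ± 0.11 (adjusted p = 0.00485) and with miR-15a by -0.53 ± 0.11 (adjusted p = 0.00991). Between miR-15a and the control microRNA it did not pass (0.33 ± 0.11, adjusted p = 0.0639). That difference passed with median-ratio scaling (0.39, adjusted p = 0.0343) and without miR-15a library b (0.47, adjusted p = 0.0348). Without miR-15a library a it was 0.185 (adjusted p = 0.286) and without control library b 0.23 (adjusted p = 0.269). The call for miR-15a against activated cells was lost without activated library a (0.058).

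**Figure D3:**
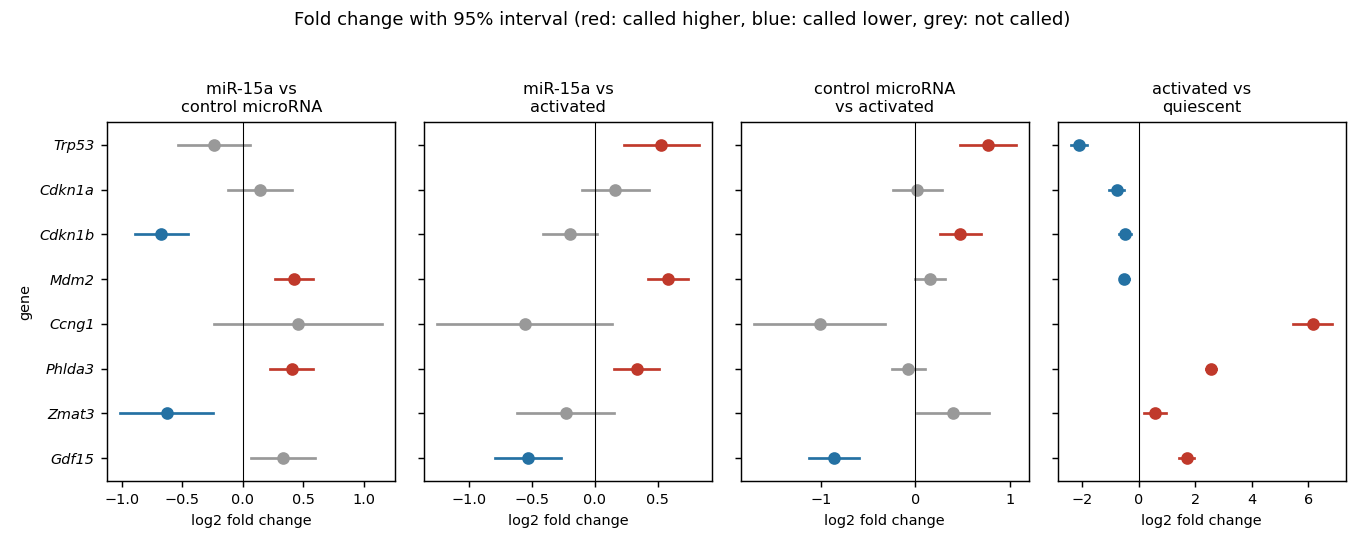
Log2 fold change (first group over second) with its 95% interval for the 8 genes in each comparison, with a separate horizontal scale in each panel. With miR-15a against the control microRNA, Mdm2 and Phlda3 lay above 0 and Cdkn1b and Zmat3 below it with their intervals. The interval of Gdf15 also lay above 0 (0.07 to 0.59) although its adjusted p did not pass, and that of Ccng1 was the widest of the 8.

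In their distance to quiescent cells the members were split. Of the 4 that passed between miR-15a and the control microRNA, 2 were nearer to the quiescent mean with miR-15a (Mdm2, at log2 distances of 0.08 with miR-15a and 0.35 with the control; Zmat3, at 0.36 and 1.01). The other 2 were farther from it (Cdkn1b, at 0.67 and 0.0028; Phlda3, at 2.87 and 2.47). These distances share the miR-15a and control values with the test and are a description. Set beside the seed matches described above, Zmat3, with 3, was lower and Phlda3, with 1, was higher. Cdkn1a and Ccng1, with 1 each, did not pass, at log2 fold changes of 0.14 and 0.46. Cdkn1b and Mdm2, with none, were lower and higher. The call of Zmat3 was lost under 6 of the 15 alternatives.

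Over the 8 libraries, the genes whose centred log2 profiles lay closest to Ccng1 were Tuft1, Fhl1 and Podnl1, at a root-mean-square distance of 0.28, 0.29 and 0.33. Closest to Phlda3 were Uqcc2, Slc25a4 and Aga, each at 0.11. Closest to Trp53 were Nfkb2, Cebpb and Zfp516, each at 0.11. These 3 members had the widest range between groups, and the contrast between activated and quiescent cells weighs most in these distances.

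Other p53 target genes were mixed in direction. With miR-15a against the control microRNA, 9 of 31 rose and 3 fell, with a median of 0.07 against -0.07 over all genes. Of all genes 14.4% rose and 15.4% fell. The shares given above for the members' other comparisons apply to this list and those below too. Trp53inp1, a p53-induced stress protein, was at 1977 and 1976 with miR-15a and at 852 in both control libraries (1.21 ± 0.09, adjusted p = 7.05e-05). Bax, which permeabilises mitochondria in apoptosis, was higher by 1.05 ± 0.10 (adjusted p = 0.000309), and Gadd45a, a growth arrest and DNA damage gene, by 1.43 ± 0.15 (adjusted p = 0.000451). The genes that fell were Sulf2, Igfbp3 and Ddit4, with Sulf2, a sulfatase of heparan sulfate, at the largest size of the 3 (-1.09 ± 0.12, adjusted p = 0.000593). Trp53inp1, Bax and Gadd45a were also lower in activated than in quiescent libraries. Macrophage and endothelial sums were likewise higher with miR-15a than with the control and lower in activated than in quiescent libraries, and the part of those cells in the difference was not tested. Leaving out single libraries gave 7 to 9 genes higher and 2 or 3 lower.

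Between activated and quiescent cells 13 of these 31 targets rose and 14 fell, with a median of -0.19 against 0.21 over all genes. Of all genes 45.4% rose and 34.1% fell. Thbs1, which encodes the secreted protein thrombospondin 1 and responds to many signals besides p53, was at the ceiling in both activated libraries and at 8202 in both quiescent ones (3.94 ± 0.07, adjusted p = 4.96e-09). Apaf1, the core of the apoptosome, was at 456 in both activated libraries and at 2670 and 2732 in quiescent ones (-2.55 ± 0.07, adjusted p = 3.54e-08). With median-ratio scaling 10 rose and 16 fell.

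Against activated cells 9 targets rose and 2 fell with miR-15a, led by Apaf1 (1.04 ± 0.07, adjusted p = 3.5e-05), Gadd45a (2.17 ± 0.15, adjusted p = 3.9e-05) and Trp53inp1 (1.27 ± 0.09, adjusted p = 3.94e-05). With the control microRNA 5 rose and 2 fell, led by Apaf1 (0.45 ± 0.07, adjusted p = 0.0077), Ei24 (0.50 ± 0.08, adjusted p = 0.0118) and Sulf2 (0.64 ± 0.12, adjusted p = 0.0153). The 7 calls of the control microRNA dropped to 1 without activated library b and to 2 without activated library a or control library b, and to 0 with these groups fitted alone.

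**Figure D4:**
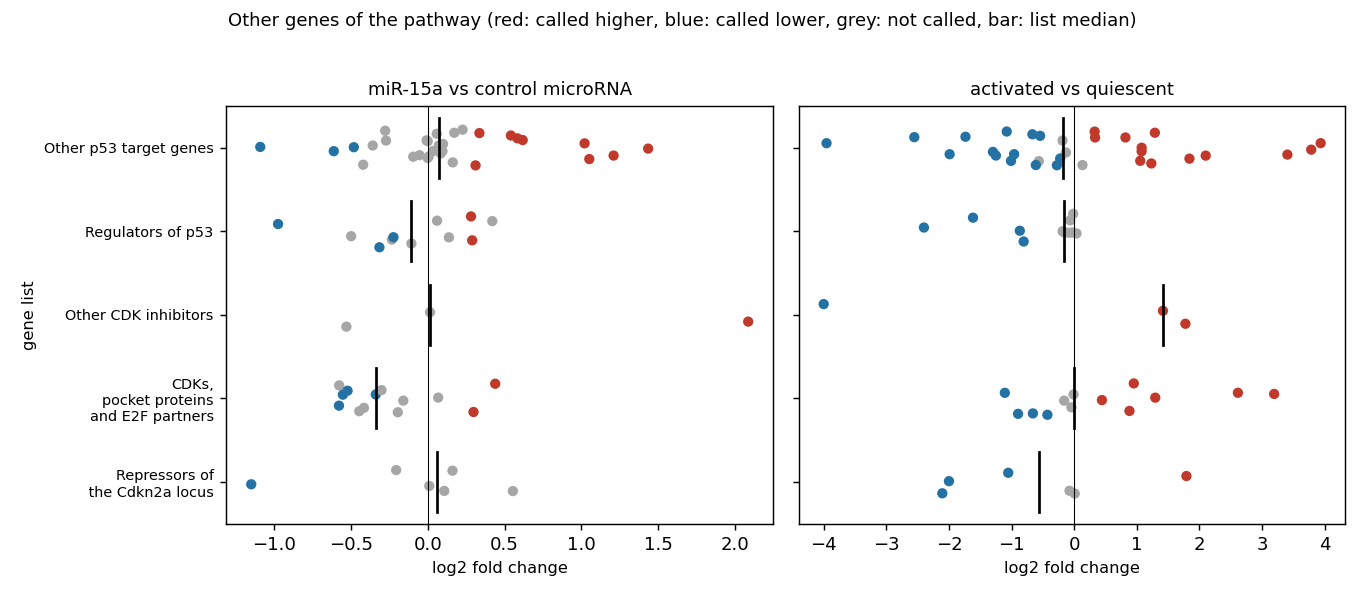
Log2 fold change of each gene of the other pathway lists for miR-15a against the control microRNA and for activated against quiescent cells, with list medians as bars and a separate scale in each panel. The other p53 targets spread to both sides of 0 in both comparisons, with 9 higher and 3 lower in the first and 13 higher and 14 lower in the second.

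Genes that regulate p53 were mixed between the microRNA groups. With miR-15a against the control microRNA 2 of 11 rose, Atm and Kat5, and 3 fell, Hipk2, Chek1 and Usp7. Over all genes 14.4% rose and 15.4% fell. Hipk2, a kinase that phosphorylates p53, was at 86 and 90 with miR-15a and at 140 and 225 with the control (-0.97 ± 0.20, adjusted p = 0.01), and Atm, the DNA double-strand break kinase, was higher by 0.28 ± 0.07 (adjusted p = 0.0185). With median-ratio scaling 4 rose and 1 fell. Without miR-15a library a or b or control library b 1 gene was called in place of 5, without control library a 2, and with these groups fitted alone 0. In activated against quiescent cells none rose and 4 fell, Sirt1, Mdm4, Ep300 and Hipk2, where 45.4% of all genes rose and 34.1% fell. Sirt1, a deacetylase of p53, was at 122 and 91 in activated and 570 and 585 in quiescent libraries (-2.40 ± 0.15, adjusted p = 2.69e-06), and Mdm4, a partner of Mdm2, was lower at -0.81 ± 0.08 (adjusted p = 5.31e-05). With median-ratio scaling 10 fell. Against activated cells 5 rose and 1 fell with miR-15a, led by Atm (0.51 ± 0.07, adjusted p = 0.00122), the replication stress kinase Atr (0.38 ± 0.06, adjusted p = 0.00271) and Hipk2 (-0.94 ± 0.20, adjusted p = 0.00924). These 6 calls dropped to 2 without activated library b and to 3 without activated library a. With the control microRNA Mdm4 (0.52 ± 0.08, adjusted p = 0.00986) and Atr (0.24 ± 0.06, adjusted p = 0.0402) were higher, but 1 gene of the list was called without either quiescent library, either miR-15a library, activated library a or control library b, and 0 without activated library b or with these groups fitted alone. With median-ratio scaling or no filter 4 were called.

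The 3 other CDK inhibitors went separate ways on activation. Cdkn2c and Cdkn2d, INK4 inhibitors of the G1 CDKs, were higher in activated cells by 1.78 ± 0.21 (adjusted p = 0.000107) and 1.42 ± 0.24 (adjusted p = 0.000942). Cdkn1c, the third Cip/Kip gene, was at 4 and 2 in activated and at 111 and 134 in quiescent libraries (-4.00 ± 0.29, adjusted p = 6.66e-06). With miR-15a Cdkn1c was at 31 and 16, against 1 and 2 with the control microRNA (2.09 ± 0.29, adjusted p = 0.00193), while Cdkn2c and Cdkn2d did not pass. Against activated cells miR-15a had higher Cdkn1c (1.79 ± 0.29, adjusted p = 0.003) and lower Cdkn2c (-0.78 ± 0.21, adjusted p = 0.0217). No lower call was made without miR-15a library b, activated library a or activated library b, or with these groups fitted alone. Cdkn1c was highest in quiescent cells and next highest with miR-15a, as were the macrophage and endothelial sums, and at these low values its fold change depends on the constant added before the logarithm.

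Among 13 CDKs, pocket proteins and E2F partners, 2 rose and 4 fell with miR-15a against the control microRNA. Over all genes 14.4% rose and 15.4% fell. Cdk4, a G1 kinase, was at 2420 and 2202 with miR-15a and at 1772 and 1634 with the control (0.44 ± 0.08, adjusted p = 0.00668). Rb1, the retinoblastoma pocket protein, was higher by 0.30 ± 0.06 (adjusted p = 0.0132), and E2f3, E2f4, Skp2 and Cks1b were lower, with E2f3, an activating E2F, at -0.58 ± 0.14 (adjusted p = 0.0206). The 6 calls dropped to 2 without control library b or either miR-15a library, and to 1 with these groups fitted alone. Over the same groups 2 of 6 proliferation markers fell. In activated against quiescent cells 6 of 13 rose and 4 fell, or 4 and 6 with median-ratio scaling, while all 6 proliferation markers rose. Over all genes 45.4% rose and 34.1% fell. Cks1b, a subunit that helps degrade p27, rose by 2.61 ± 0.10 (adjusted p = 1.76e-07), and Cdk1, the mitotic kinase, by 3.19 ± 0.19 (adjusted p = 2.01e-06). Against activated cells Cdk4 was higher with miR-15a (0.67 ± 0.08, adjusted p = 0.00073) and E2f3 and Skp2 were lower (-0.47 ± 0.14 and -0.46 ± 0.15, adjusted p = 0.0351 and 0.0423), whereas 3 rose and 0 fell with median-ratio scaling. Neither of the lower calls was made without miR-15a library a or b or activated library b, and 1 of them was made without each of the other 5 libraries. With the control microRNA 4 rose and 1 fell, led by E2f4 (0.68 ± 0.14, adjusted p = 0.0211), Cdk2 (0.47 ± 0.10, adjusted p = 0.0294) and Cdk6 (0.68 ± 0.15, adjusted p = 0.0315), and no gene of the list passed without activated library a or b or control library b.

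Of 6 repressors of the Cdkn2a locus, Tbx3 was lower with miR-15a than with the control microRNA, at means of 6 and 19 (-1.15 ± 0.23, adjusted p = 0.0101), and no longer passed without miR-15a library b or control library b, or with these groups fitted alone. In activated against quiescent cells Suz12, Tbx2 and Cbx7 fell and Tbx3 rose, where 34.1% of all genes fell and 45.4% rose. Suz12, a Polycomb subunit, was lower at -1.05 ± 0.08 (adjusted p = 1.13e-05), Tbx2, a T-box repressor, at -2.0 ± 0.21 (adjusted p = 6.66e-05) and Cbx7, a Polycomb chromobox protein, at -2.11 ± 0.25 (adjusted p = 0.000119). Against activated cells Suz12 was higher with miR-15a (0.37 ± 0.08, adjusted p = 0.0121) and Tbx3 lower (-0.81 ± 0.23, adjusted p = 0.03), with 0 genes of the list called without miR-15a library b or activated library b and 1 without activated library a. With the control microRNA 0 of 6 passed against activated cells in limma, and 2 of them, Tbx2 and Suz12, had an unadjusted p under 0.05.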

How the data were processed

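RNA was prepared with TRIzol and TruSeq kits and sequenced from single ends, per the labels' protocols. The submitters' processing notes name STAR, Subread, featureCounts and the build mm10, with versions, annotation and normalization not given in the sources used here. The values deposited by the authors are normalized scores: 910 distinct whole numbers recur in every library, with totals 0.409% apart, as quantile normalization leaves them. Depth is therefore unknown and no counting interval is given.

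The scores were tested with limma (version 3.58.1, R 4.3.3) on log2(value + 5). The genome-wide fit used 4 group means over all 8 libraries (4 residual degrees of freedom, variance prior following the mean) and genes that reached 10 in 2 or more libraries, which kept all 8 members. P-values are two-sided with Benjamini-Hochberg adjustment over 13150 genes, and fold changes understate low genes. The fit was tested on simulated data with independent noise. These held neither the shared set of values nor the ceiling of the real libraries, so the effect of those on the p-values was not tested. All members are named. Of each other list, the up to 3 called genes with the smallest adjusted p per comparison are named, and any needed for a count of 5 or fewer. One gene that this rule names is not reported here. Genes of like pattern are those with the smallest root-mean-square distance. The members and lists were chosen with earlier results of these data known. Seed and promoter matches used GENCODE M21 transcripts and RefSeq windows on GRCm38, the assembly of mm10. Alternatives were pseudocounts of 1 and 20, no filter, median-ratio scaling, a constant variance prior, a replicate block, the compared groups alone and each library left out.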

Additional observations from a re-analysis of the deposited data

How the results depend on the processing

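Each of the 8 genes in 4 comparisons (32 results) was recomputed under 15 alternatives. No called direction turned, and 20 results kept their side of the threshold throughout. Of the 480 values, 23 lost a call and 9 gained one. With the compared groups alone the genes called over the whole table dropped to 2093 for miR-15a against the control microRNA and to 276 for the control microRNA against activated cells, where 1 member (Gdf15) was called in place of 3. Leaving out single libraries gave 2375 to 3613 genes for miR-15a against the control microRNA (3926 with all), 2764 to 5128 for miR-15a against activated cells (5045), 490 to 1688 for the control microRNA against activated cells (1813) and 9606 to 10483 for activated against quiescent cells (10451). It gave 2 to 4 members called in place of 4 for miR-15a against activated cells and 1 to 4 in place of 3 for the control microRNA. With the replicate block the 4 counts of members were unchanged, at 4, 4, 3 and 8 in that order of comparisons, and 3776 genes were called for miR-15a against the control microRNA. The letters a and b were not shown to pair libraries: the a-minus-b differences of 2 groups correlated at -0.07 to 0.09 across genes. Fits with fewer libraries have fewer degrees of freedom, though some called more genes than the full fit, and the causes were not tested. With 2 libraries per group and an unknown depth, a difference that did not pass is not shown to be absent, and steps between high values limit Ccng1.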
